A study of Mus musculus with 4 samples.

Results

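The Bcl2 family sets the threshold for mitochondrial apoptosis, and 10 of its genes were examined among the 17393 genes measured: the survival genes Bcl2, Bcl2l1 and Mcl1, the effector genes Bax and Bak1, and the BH3-only genes Bad, Bid, Bcl2l11, Bbc3 and Pmaip1. Each was taken by its gene symbol, each had 1 row in the deposited table, and all 10 passed the filter on low values. RNA came from DS19 cells, a mouse erythroleukemia (MEL) line that resembles an arrested red cell precursor. There were 2 libraries of Wdr26-/- knockout cells and 2 of wild-type cells. Wdr26 encodes a subunit of the CTLH ubiquitin ligase. The growth description for both genotypes names dimethyl sulfoxide at 1.5% as the inducer of differentiation, without saying whether the sequenced cells had received it. The sources used here do not give how the knockout was made or whether it is a single clone. Separate cultures are not named in the labels either, so each p-value reflects only how far these 4 samples spread, possibly for technical reasons.

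In this family, survival proteins hold the effectors Bax and Bak in check, and BH3-only proteins relay stress by binding the survival proteins or by activating the effectors. Once active, Bax and Bak open the outer mitochondrial membrane, cytochrome c leaves, and caspases are activated on the Apaf1 apoptosome. In the mouse, Bcl-xL, the long product of Bcl2l1, keeps late erythroblasts alive, and Mcl-1 is needed at earlier stages of red cell formation.

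The targeted gene and the identity of the cells were checked first. Wdr26 stood at 9 and 7.84 FPKM (fragments scaled to transcript length and sequencing depth) in the knockout libraries, against 55.4 and 52.4 FPKM in the wild-type libraries. All 7 erythroid markers examined were expressed, with summed levels of 152026 and 178094 FPKM in knockout and 166739 and 206113 FPKM in wild type, most of it globin. Of the markers of other cell types, 3 of 5 megakaryocyte genes passed the filter, with Itga2b at 215 to 240 FPKM across the 4 libraries, as did 1 of 6 myeloid genes (Cd68, at 1.11 to 2.25 FPKM). None of the 2 mast cell, 5 lymphoid and 2 fibroblast markers with a row passed it. Elane, Cpa3 and Cd3e were listed at 0 in every library. Of the erythroid markers, 4 (Klf1, Alas2, Epor and Slc4a1) stood below wild type in both knockout libraries and 0 stood above it. In limma 0 were past the threshold and 1, Slc4a1, had an unadjusted p under 0.05. Over all genes tested, 10.8% stood below, 29.9% stood above and 11.4% had an unadjusted p under 0.05. Klf1, Alas2 and Epor differed by −0.34, −0.39 and −0.34 on the log2(FPKM + 1) scale, knockout minus wild type. Slc4a1, which encodes the band 3 anion exchanger, stood at 48.6 and 6.70 FPKM in knockout and 436 and 285 FPKM in wild type. The part of these genes in the levels of the Bcl2 family was not tested.

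Transcripts of the survival gene Mcl1 were the most abundant of the family, and no member passed the test for a difference between genotypes. With 2 libraries a genotype, that does not show that the differences are small. The largest difference was a lower level of Bcl2l11, which encodes the BH3-only protein Bim. Of the 10 members, 0 passed in limma at a Benjamini-Hochberg adjusted p under 0.05 over all 10670 genes tested, where 0.0937% of genes did. At an unadjusted p under 0.05 there was 1 member, Bcl2l11, against 11.4% of all genes tested. The genotypes did not overlap for 5 members, with Bcl2 and Bak1 higher in knockout and Bcl2l1, Bid and Bcl2l11 lower. Among all genes tested the genotypes did not overlap for 40.7%, with 29.9% higher in both knockout libraries and 10.8% lower. With median-centred values these shares were 19.9% higher and 20.1% lower, and the values of Bcl2 overlapped, which left Bak1 higher and the same 3 members lower. The median difference of the members was 0.14 on the log2(FPKM + 1) scale, knockout minus wild type, and that of all genes tested was 0.067. The median of the members was 0.0039 without knockout library 2, 0.061 without knockout library 1, and 0.048 when wild-type library 1 was left out. That of all genes tested was then 0.103, 0.046 and 0.118. Without wild-type library 2 the median was 0.10 for the members and 0.019 for all genes tested. Whether the members lay above or below all genes thus depended on the library left out. In bulk RNA, fewer cells that express a gene and less RNA per cell cannot be told apart.

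**Figure D1:**
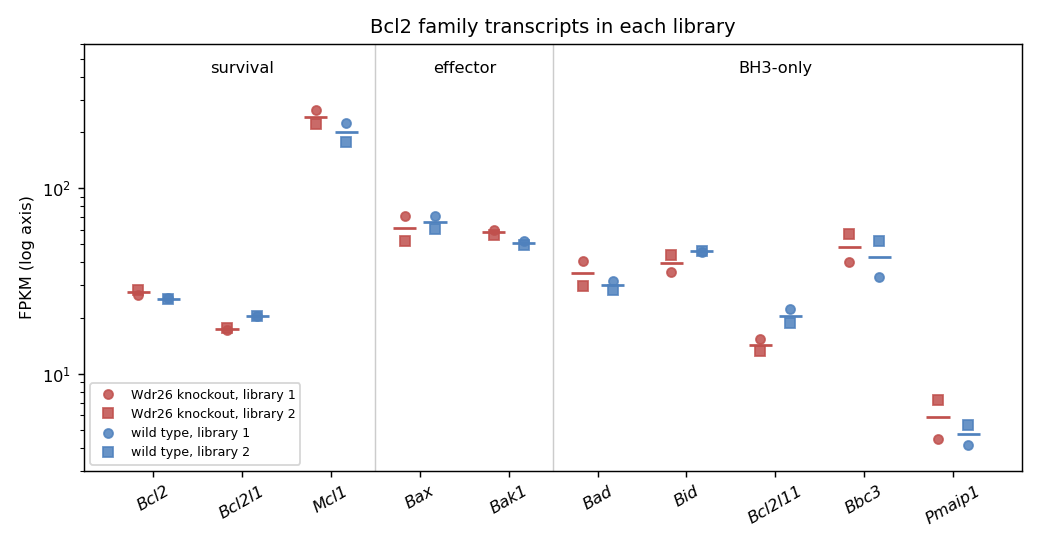
FPKM of the 10 Bcl2 family genes on a log axis, with a point for each library (circles for library 1, squares for library 2) and a line at each group mean, Wdr26 knockout in red to the left of wild type in blue. Mcl1 lies above every other member, Pmaip1 lies below every other member, and the knockout and wild-type points of Bcl2l11 are apart.

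FPKM is scaled to transcript length, so levels of different genes can be set side by side. Over the 4 libraries Mcl1 averaged 222 FPKM, a level above that of 97.5% of the genes tested. Its range did not reach that of any other member. Bax, Bak1, Bbc3, Bid and Bad followed with means of 63.5, 54.4, 45.6, 42.7 and 32.6 FPKM, and neighbours in this order overlapped. Bcl2 averaged 26.5 FPKM, and its highest library, at 28.39 FPKM, was just under the lowest of Bad, at 28.43 FPKM, while its lowest was above every Bcl2l1 value. Bcl2l1, at 18.9 FPKM, and Bcl2l11, at 17.4 FPKM, overlapped. Pmaip1 was the lowest at 5.28 FPKM, above 27.0% of the genes tested. The levels of Bcl2 were also the steadiest of the 10, with a highest library 1.12 times its lowest, and those of Pmaip1 the most variable, at 1.74 times.

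Among the survival genes, Mcl1 encodes a short-lived protein that restrains Bak and is renewed by constant synthesis. Mcl1 (gene ID 17210, chromosome 3, 95656944 to 95663179, mm10) was at 264 and 222 FPKM in knockout and 225 and 178 FPKM in wild type. The lower knockout library was thus just below the higher wild-type library, and the groups overlapped. The difference was 0.27 (95% interval −0.15 to 0.70, limma adjusted p = 0.644) on the log2(FPKM + 1) scale. Without wild-type library 2 it was 0.11, and without wild-type library 1 it was 0.44.

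Bcl2 (gene ID 12043, chromosome 1, 106538176 to 106714290) encodes the founding survival protein of the family. It was at 26.6 and 28.4 FPKM in knockout and 25.7 and 25.2 FPKM in wild type. Both knockout values lay above both wild-type values, by little. The difference was 0.10 on the log2 scale (95% interval −0.20 to 0.41, limma adjusted p = 0.849), and 0.028 with median-centred values, where the genotypes overlapped. It was 0.059 without knockout library 2.

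Bcl2l1 (gene ID 12048, chromosome 2, 152758732 to 152833803) was at 17.3 and 17.6 FPKM in knockout and at 20.4 FPKM in both wild-type libraries. The groups did not overlap, and the libraries within each genotype nearly coincided. The difference was −0.22 on the log2 scale (95% interval −0.52 to 0.090, limma adjusted p = 0.61). The value sums the long, survival-promoting and the short, death-promoting forms of Bcl2l1, so their balance is not shown. Its 3′ end overlaps Cox4i2 on the opposite strand, which was listed at 0 in every library.

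Bcl2 and Bcl2l1, whose products have similar roles, thus stood in a different proportion in these libraries, though neither gene passed in limma. The ratio of Bcl2 to Bcl2l1 FPKM was 1.54 and 1.61 in the knockout libraries and 1.26 and 1.24 in the wild-type libraries. The ratio could not overlap, because Bcl2 was higher and Bcl2l1 lower in both knockout libraries, so it adds no evidence to theirs. It was chosen for description after the values had been seen. The smallest p that an exact permutation test allows for 2 libraries against 2 is 0.333, and none is given. The sum of the pair was 43.9 and 46.0 FPKM in knockout and 46.1 and 45.7 FPKM in wild type, and overlapped between genotypes.

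The effectors Bax and Bak are interchangeable in many cells, and each forms the pores through which cytochrome c leaves. Bax (gene ID 12028, chromosome 7, 45461695 to 45466903) was at 70.9 and 51.8 FPKM in knockout and 70.7 and 60.5 FPKM in wild type. The wild-type values lay within the range of the knockout values. The difference was −0.11 on the log2 scale (95% interval −0.56 to 0.35, limma adjusted p = 0.902), and without knockout library 2 it was 0.12.

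Bak1 (gene ID 12018, chromosome 17, 27019812 to 27028627) was at 59.5 and 56.2 FPKM in knockout and 52.3 and 49.7 FPKM in wild type. Both knockout values lay above both wild-type values. The difference was 0.18 on the log2 scale (95% interval −0.13 to 0.49, limma adjusted p = 0.689), and 0.10 with median-centred values. Bak1 lies within the span of Ggnbp1 on the opposite strand, which stood at 0.68 to 1.35 FPKM across the libraries.

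Bim, the product of Bcl2l11, binds every main survival protein and can also activate Bax directly. In blood cells that lose growth factor support, the forkhead factor Foxo3 is known to activate its gene. Bcl2l11 (gene ID 12125, chromosome 2, 128126038 to 128162547) was at 15.4 and 13.3 FPKM in knockout and 22.3 and 18.7 FPKM in wild type. Both knockout libraries lay below both wild-type libraries, and the means were 14.4 ± 1.52 FPKM in knockout and 20.5 ± 2.55 FPKM in wild type (SD, n = 2 each), a ratio of 0.699. The difference was −0.49 (SE 0.16, 95% interval −0.86 to −0.11) on the log2 scale, with an unadjusted p of 0.0195 and an adjusted p of 0.337 in limma. It was −0.37 when wild-type library 1 was left out and −0.61 when wild-type library 2 was. Without knockout library 1 it was −0.59, and without knockout library 2 it was −0.39. The value covers 5 RefSeq transcripts and 1 assembled transcript, so the known splice forms of Bim are not separated.

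Foxo3, a regulator named by its large difference within its list, was at 124 and 133 FPKM in knockout and 191 and 185 FPKM in wild type. Both knockout libraries were below both wild-type libraries (difference −0.54 on the log2 scale, 95% interval −0.86 to −0.23, limma adjusted p = 0.236). The part of Foxo3 in the level of Bcl2l11 was not tested. Promoter windows of the members were searched for the forkhead motif GTAAACA and its variant GTCAACA, for the GATA motif AGATAA and for the STAT motif TTCNNNGAA, each on both strands. The 4 motifs were chosen after values and sequences had been seen, and no match lay within another. Windows ran from 250 bases before to 50 after each annotated start and came from RefSeq (GRCm38.p6). The table held 15 windows for 9 members, and none was matched for Pmaip1. GTAAACA was in 2 of the 15 windows, of Bcl2l11 and Bbc3, and in 3.65% of all 32851 windows. GTCAACA was in 1, also of Bcl2l11, and in 2.5% of all windows. AGATAA was in 1, of Bcl2l1, and in 11.2% of all windows. TTCNNNGAA was in 0 of the 15 and in 8.30% of all windows. A match describes these letters and is not a shown binding site.

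The 250 bases before the starts of the 3 windows that hold a forkhead motif are shown 5′ to 3′ on the strand of the gene, with the motif in capitals (on the other strand for Bbc3), since they are all the windows of the members in which either form was found. The motif begins 227 bases before the first Bcl2l11 start, 168 before the second and 167 before a Bbc3 start that lies within the span of the gene.
Bcl2l11, first start, chr2:128125788-128126037, plus strand: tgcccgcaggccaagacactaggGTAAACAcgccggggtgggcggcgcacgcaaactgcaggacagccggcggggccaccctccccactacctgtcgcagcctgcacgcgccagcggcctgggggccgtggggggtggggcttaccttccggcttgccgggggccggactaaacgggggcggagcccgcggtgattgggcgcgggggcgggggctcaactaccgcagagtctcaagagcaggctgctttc
Bcl2l11, second start, chr2:128127325-128127574, plus strand: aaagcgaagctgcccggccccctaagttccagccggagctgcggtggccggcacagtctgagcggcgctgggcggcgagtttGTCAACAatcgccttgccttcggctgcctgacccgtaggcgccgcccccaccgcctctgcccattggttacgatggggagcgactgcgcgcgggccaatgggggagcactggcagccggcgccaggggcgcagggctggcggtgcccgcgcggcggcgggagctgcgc
Bbc3, chr7:16310011-16310260, plus strand: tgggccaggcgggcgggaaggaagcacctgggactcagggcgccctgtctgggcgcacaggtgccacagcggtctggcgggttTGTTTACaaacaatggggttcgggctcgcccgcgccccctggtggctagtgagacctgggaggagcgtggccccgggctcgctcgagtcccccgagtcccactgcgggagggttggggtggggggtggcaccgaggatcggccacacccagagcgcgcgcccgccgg
For Bcl2l1, 30 bases around the GATA motif, which begins 41 bases before an internal start, are shown in the same way, because GATA1 is a known activator of this gene in erythroid cells.
Bcl2l1, chr2:152828513-152828542, minus strand: attgtgacccaaAGATAAagagagcagagg

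Bbc3 (gene ID 170770, chromosome 7, 16308398 to 16318334) encodes Puma, a p53-induced BH3-only protein that binds all main survival proteins. It was at 40.3 and 56.8 FPKM in knockout and 33.4 and 52.0 FPKM in wild type. Library 2 was higher than library 1 in both genotypes, and this gap was wider than that between genotypes. The difference was 0.19 on the log2 scale (95% interval −0.43 to 0.82, limma adjusted p = 0.87), and without knockout library 2 it was −0.051 and without wild-type library 1 −0.12.

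Pmaip1 (gene ID 58801, chromosome 18, 66458604 to 66465558) encodes Noxa, which binds Mcl-1 and favours its degradation. It was at 4.45 and 7.23 FPKM in knockout and 4.15 and 5.28 FPKM in wild type. The groups overlapped, and library 2 was again the higher in both genotypes (difference 0.24 on the log2 scale, 95% interval −0.34 to 0.81, limma adjusted p = 0.80). Without knockout library 2 it was −0.061.

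Bid (gene ID 12122, chromosome 6, 120893119 to 120917062) is cleaved by caspase-8 and carries death receptor signals to mitochondria. It was at 35.6 and 43.9 FPKM in knockout and 45.5 and 45.8 FPKM in wild type. Both knockout libraries lay below the wild-type pair, 1 of them narrowly. The difference was −0.20 on the log2 scale (95% interval −0.57 to 0.16, limma adjusted p = 0.70), with −0.057 when knockout library 1 was left out and −0.35 when knockout library 2 was.

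Bad (gene ID 12015, chromosome 19, 6941861 to 6951905) encodes a BH3-only protein that growth factor signalling holds inactive by phosphorylation. It was at 40.6 and 29.7 FPKM in knockout and 31.7 and 28.4 FPKM in wild type. A single knockout library stood above the rest, and the other lay between the wild-type values. The difference was 0.20 on the log2 scale (95% interval −0.24 to 0.64, limma adjusted p = 0.767), and −0.015 without knockout library 1. The first 590 bases of Bad overlap Gpr137 on the opposite strand, which stood at 19.5 to 22.7 FPKM, and the sources used here do not say whether the libraries kept strand, so the value of Bad is uncertain.

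**Figure D2:**
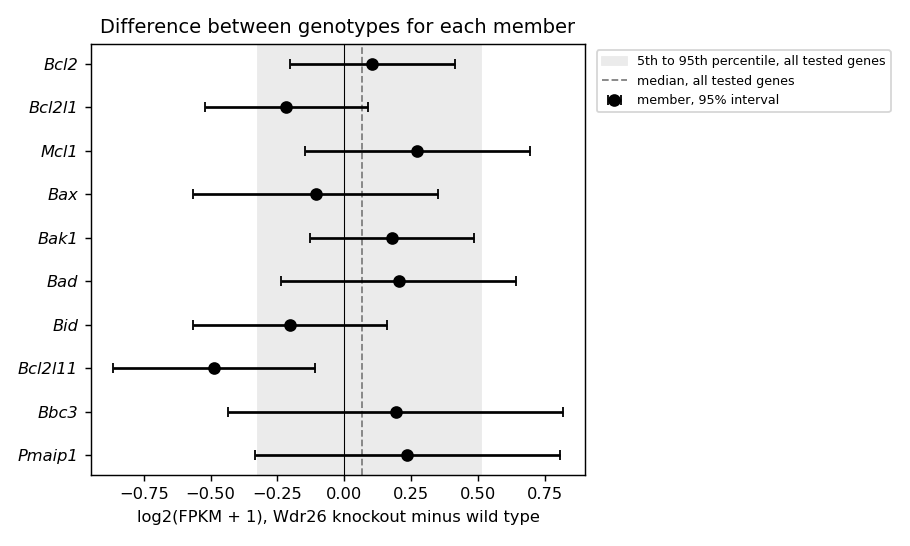
Difference in log2(FPKM + 1), Wdr26 knockout minus wild type, for each member (points) with its 95% interval from limma (bars); the dashed line is the median of all 10670 genes tested and the grey band their 5th to 95th percentile, −0.32 to 0.51. The unadjusted interval of Bcl2l11, −0.86 to −0.11, is the only one of the 10 that does not cross 0.

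Summed by role, the totals of each class overlapped between genotypes. The 5 BH3-only genes together stood at 136 and 151 FPKM in knockout and 137 and 150.3 FPKM in wild type, and the ranges nearly coincided. Within that sum Bcl2l11 made up 11.3% and 8.80% in knockout and 16.3% and 12.5% in wild type, so that both knockout shares were below both wild-type shares. The same held for Bid, at 26.1% and 29.1% in knockout and 33.2% and 30.5% in wild type. Because the sums nearly coincided, these shares largely restate the lower levels of both genes. Bbc3 made up 29.5% and 37.6% in knockout and 24.4% and 34.6% in wild type, and the groups overlapped. The shares of Bad and of Pmaip1 overlapped too. The 2 effectors together stood at 130 and 108 FPKM in knockout and 123 and 110 FPKM in wild type, and overlapped.

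The 3 survival genes together stood at 308 and 268 FPKM in knockout and 271 and 224 FPKM in wild type. The lower knockout sum was just below the higher wild-type sum. Mcl1 supplied 82.9% to 85.7% of it in knockout and 79.6% to 83.0% in wild type, so the sum mostly follows Mcl1. The ratio of survival to BH3-only FPKM was 2.26 and 1.78 in knockout and 1.97 and 1.49 in wild type, and overlapped. On the log2 scale that ratio differed by 0.22 between genotype means, within its SD of 0.27 between libraries of a genotype. The ratio of survival to effector FPKM was 2.36 and 2.48 in knockout and 2.20 and 2.04 in wild type, without overlap, and this ratio too was chosen after the values had been seen. These are sums of RNA, and protein amounts were not measured.

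**Figure D3:**
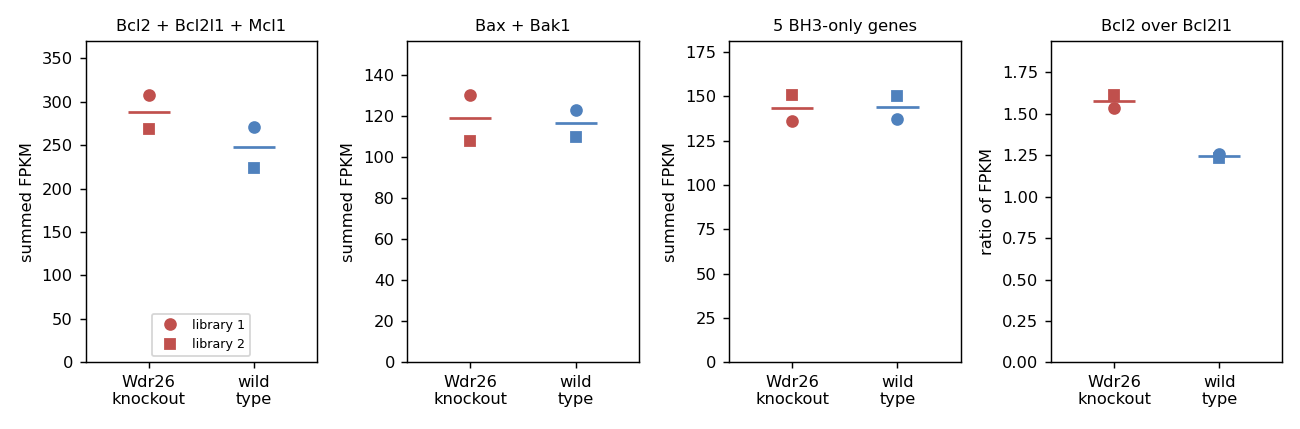
Summed FPKM of the survival, effector and BH3-only genes, and the ratio of Bcl2 to Bcl2l1 FPKM, in each library (circles for library 1, squares for library 2), with lines at the group means and Wdr26 knockout to the left of wild type. The ranges of the BH3-only sums of the genotypes nearly coincide, while the Bcl2 to Bcl2l1 ratio is 1.54 and 1.61 in knockout and 1.26 and 1.24 in wild type. That the ratio does not overlap follows from Bcl2 being higher and Bcl2l1 lower in both knockout libraries.

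Several members differed as much between libraries of a genotype as between genotypes. Mcl1, Bax, Bak1, Bad and Bcl2l11 had a lower level in library 2 of each genotype than in its library 1, and Bid, Bbc3 and Pmaip1 had a higher one. The library 2 to library 1 ratio of Bbc3 was 1.41 in knockout and 1.56 in wild type, and that of Mcl1 was 0.843 in knockout and 0.794 in wild type. Bcl2 and Bcl2l1 showed no such common order.

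Other genes of the pathway were read from lists, and none of them passed in limma over all genes. Of 15 further Bcl2 family genes, 14 had a row and 8 were tested. Of these, 0 passed, 3 were above wild type in both knockout libraries and 2 below, with a median difference of 0.090 on the log2 scale. Over all genes tested, 29.9% were above, 10.8% were below and the median was 0.067. At an unadjusted p under 0.05 there was 1, Bnip3, against 11.4% of all genes tested. Bnip3, a mitophagy receptor induced by low oxygen, was at 116 and 152 FPKM in knockout and 163 and 222 FPKM in wild type. All knockout values were below all wild-type values (difference −0.52, 95% interval −1.02 to −0.010, limma adjusted p = 0.429). Its relative Bnip3l, which serves clearance of mitochondria from maturing red cells, was at 89.4 and 113 FPKM in knockout and 109 and 133 FPKM in wild type, and overlapped. Bcl2l14, at 1.13 and 1.35 FPKM in knockout and 0.85 and 0.62 FPKM in wild type, passed the filter only through its knockout values. Its higher level in knockout therefore carries no weight, although it is 1 of the 3 counted above wild type. Bcl2a1a, Bcl2a1b and Bcl2a1d, survival genes of myeloid and lymphoid cells, were listed at 0 in every library.

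Downstream of mitochondria, all 18 apoptosome, caspase and inhibitor genes were tested, and 0 passed. Among all genes tested, 29.9% were above wild type in both knockout libraries, 10.8% were below, and 11.4% had an unadjusted p under 0.05. Of the 18, 6 were above, 2 were below, and 2 had such a p, both in the higher direction. Among them was Birc3, an inhibitor-of-apoptosis ligase. Birc3 was at 11.5 and 17.2 FPKM in knockout and 8.33 and 9.81 FPKM in wild type (difference 0.58, 95% interval 0.068 to 1.10, limma adjusted p = 0.389). The most abundant genes of the list, Birc5 (survivin, which also serves in mitosis) and Birc2, overlapped between genotypes, at 47.1 and 32.7 FPKM in knockout and 53.6 and 43.4 FPKM in wild type for Birc5, and at 22.0 and 35.0 FPKM in knockout and 23.9 and 25.1 FPKM in wild type for Birc2.

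Of 10 death receptor genes, 9 had a row and 7 were tested, with 0 past the threshold, 4 above wild type in both knockout libraries and 0 below. Among all genes tested these shares were 29.9% above and 10.8% below. With median-centred values they were 19.9% and 20.1%, but the counts of this list were not recomputed with such values. Their median difference was 0.20 on the log2 scale, beside 0.067 over all genes tested. Tnfrsf1a, the main receptor for tumour necrosis factor, was at 36.2 and 33.4 FPKM in knockout and 23.8 and 24.4 FPKM in wild type. Both knockout libraries were above both wild-type libraries, with a difference of 0.51 (95% interval 0.20 to 0.82, unadjusted p = 0.00684, limma adjusted p = 0.25). Tnfrsf10b, the mouse receptor for the ligand TRAIL, was at 3.27 and 2.88 FPKM in knockout and 2.57 and 1.79 FPKM in wild type (limma adjusted p = 0.548). The adaptor gene Tradd overlapped, at 22.8 and 19.3 FPKM in knockout and 20.3 and 20.2 FPKM in wild type.

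Of 18 genes that control the family or its proteins, 17 were tested and 0 passed, with 5 above wild type in both knockout libraries and 3 below. Over all genes tested, 29.9% were above and 10.8% were below. At an unadjusted p under 0.05 there were 3, against 11.4% of all genes tested. Foxo3 and Pim1 were lower in knockout, and Stat5a, a transcription factor of the erythropoietin pathway, was higher. Stat5a, named after its values were seen, was at 16.4 and 15.1 FPKM in knockout and 12.3 and 10.6 FPKM in wild type (difference 0.43, limma adjusted p = 0.361). Pim1, a kinase that phosphorylates and inactivates Bad, was at 226 and 136 FPKM in knockout and 329 and 254 FPKM in wild type. Every knockout value was below every wild-type value, but the knockout libraries differed widely from each other (difference −0.72, 95% interval −1.36 to −0.072, limma adjusted p = 0.395). Of the 2 most abundant, Gata1 overlapped between genotypes, at 525 and 451 FPKM in knockout and 462 and 489 FPKM in wild type. Tmbim6, a membrane protein that guards against endoplasmic reticulum stress, was at 292 and 277 FPKM in knockout and 247 and 251 FPKM in wild type (limma adjusted p = 0.678).

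**Figure D4:**
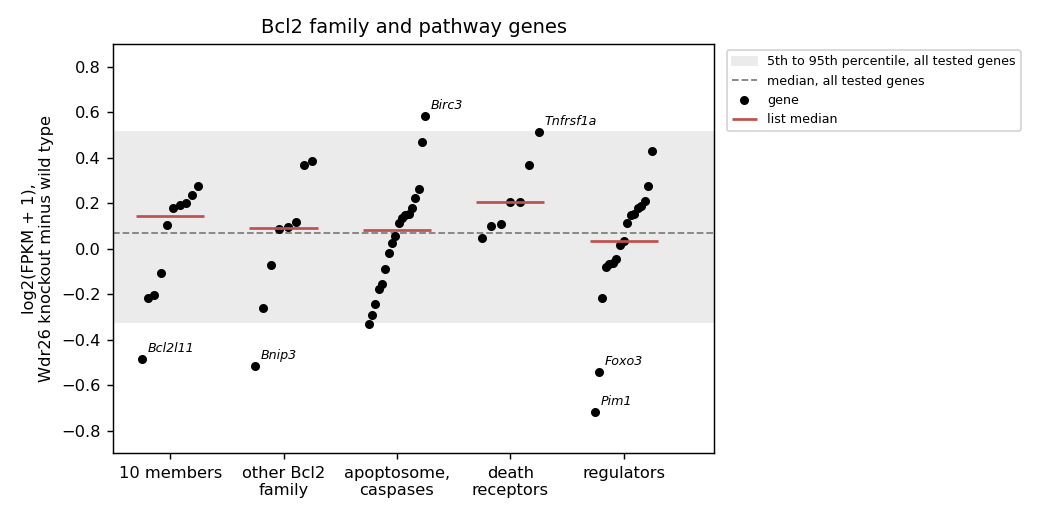
Difference in log2(FPKM + 1), Wdr26 knockout minus wild type, of each tested gene (points) in the 10 members and 4 further lists, with red lines at list medians; the dashed line is the median of all genes tested and the grey band their 5th to 95th percentile. Bcl2l11, Bnip3, Foxo3 and Pim1 lie well below the band and Xiap just below it, and Birc3 and Tnfrsf1a lie at or above its upper edge of 0.51.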

How the data were processed

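Ribosomal RNA was depleted before library preparation, per the labels' protocols, and 4 libraries (2 per genotype) were grouped by their titles. The deposited table holds 1 value per gene and library with no unit in its header. The values were taken as FPKM, computed by the authors, because the deposited values multiplied by transcript length (GENCODE M21, through RefSeq identifiers, for 16050 genes) summed to 1.02e+09 to 1.04e+09 per library. TopHat2 and mm10 are named in the submitters' processing notes, and the sources used here do not give the quantifier. Rows of Bax, Bbc3, Bcl2l1 and Bcl2l11 each include 1 assembled transcript beside RefSeq ones. Steps in the lowest values of short genes pointed to about 20600000 to 21200000 fragments per library, or 26800000 to 28600000 if 200 bases of each length are not counted, so depth differed little between libraries, and no counting interval was computed.

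The 10670 genes that reached 1 FPKM in 2 or more libraries were tested, and log2(FPKM + 1) was compared between knockout and wild type with limma 3.58.1 in R 4.3.3 (mean-variance trend, no covariates, Benjamini-Hochberg adjustment over all genes tested, threshold 0.05, 95% intervals per gene without adjustment). The pseudocount of 1 understates the change of low genes. Coordinates came from RefSeq (GRCm38.p6). The procedure was tested on simulated data, with planted changes larger than that of any member and noise drawn independently for each library. That test does not show how often differences as small as those of the members would be found. The members and the lists were chosen with earlier results of these data known. Named genes were Wdr26, the 10 members and, per further list, the 2 most abundant and the 2 with the largest difference among those whose groups did not overlap. Some genes that this rule names are left out here. A measure of likeness to other genes was not computed over 4 libraries. Tables and figures used Python 3.11.15, pandas 2.3.3 and matplotlib 3.10.9. Alternatives were 2 other scalings (median-centred, quantile-normalized), no filter or a mean of 5 FPKM or more, no trend in limma, 0.1 as the pseudocount, a block for the library number, each library left out in turn, and removal of globin genes with rescaling.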

Additional observations from a re-analysis of the deposited data

How the results depend on the processing

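The directions of Bcl2, Bcl2l1, Mcl1, Bak1, Bid and Bcl2l11 held in all 12 alternatives, and no member passed in 11 of them. Several of these alternatives could not reverse a direction. The other filters, the fit without trend and the block left each difference unchanged. Leaving out a single library cannot reverse a direction where the genotypes did not overlap. With the library number as a replicate block, 1 member passed, Bcl2l11 (difference −0.49, limma adjusted p = 0.00102), among 1863 genes called (17.5% of those tested). The libraries share only a number in the labels, although deviations of same-numbered libraries from their group means correlated at 0.606 across 10670 genes. Leaving out single libraries, differences ran from −0.015 to 0.42 for Bad, from −0.33 to 0.12 for Bax, from −0.12 to 0.50 for Bbc3 and from −0.061 to 0.53 for Pmaip1. The median of the members then ran from 0.0039 to 0.10, and 0 members passed, at adjusted p-values for Bcl2l11 of 0.0507 to 1.00. With the same libraries left out, 0 to 720 genes passed in all: 0 without wild-type library 1 or 2 (574 at an unadjusted p under 0.05 in each), 720 without knockout library 1 and 314 without knockout library 2. The genes called numbered 0 with no filter on low genes (1692 at an unadjusted p under 0.05), 2 with a mean of 5 FPKM or more and 21 without globin genes. Wdr26 stayed between −2.63 and −2.46 without single libraries, where its adjusted p reached 0.0682, and was −2.55 with no filter (limma adjusted p = 0.0675). The cause of these shifts was not tested. The survival to BH3-only ratio was recomputed only without single libraries, where its log2 difference ran from 0.022 to 0.43. Precision differed between members with 2 libraries a genotype: the SE of the log2 difference ran from 0.13 for Bcl2l1, Bak1 and Bcl2 to 0.26 for Bbc3.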
